A study of Mus musculus with 4 samples.

Results

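The accessible chromatin of Cdc14a/Cdc14b double-knockout mouse embryonic stem cells was compared with that of wild-type cells at day 0, before differentiation. The members are the accessible regions (peaks) listed in each of these 2 libraries: 222257 in the knockout and 198860 in wild type, 421117 in all, out of 838566 in the 4 libraries of the series. They are all the peaks of the 2 libraries with these labels. The knockout group is labelled Cdc14ab KO and the other wild-type; both came from stem cells derived from mouse blastocysts and were kept in medium with LIF, the cytokine that sustains self-renewal. Both were grown over feeder cells, which were removed by plating at low density on gelatin, and were then cleared of dead cells and treated with DNase I before nuclei were isolated. The other 2 libraries are the same genotypes at day 5 of neural differentiation in N2B27 medium with EGF and FGF2, and they are used below only as a separate readout. Every library carries the label clone 3, and whether that names the same derivation in both genotypes is not given in the sources used here. Each group held 1 library, so the genotype, the cell line and the library cannot be told apart, and none of the differences below has a replicate check.

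CDC14 phosphatases remove phosphates that cyclin-dependent kinases place on their targets, and in yeast they drive the exit from mitosis. Embryonic stem cells hold a network of transcription factors around OCT4, SOX2 and NANOG in an active state, while many developmental genes carry bivalent promoters, which bear activating and repressive histone marks together. The study asks, by its title, how CDC14 enzymes bear on bivalent promoters and on the exit from stemness. In single-nucleus ATAC-seq a transposase cuts open DNA, and clusters of cuts are called as peaks; with lists of peaks alone, a region is either listed or not, and how strongly it was open is not known.

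Gene starts show the comparison in its simplest form. Of 7 starts shown here, Nanog had a peak in both libraries, Col3a1, Fgf2, Hnf4a and Lhx1 in the knockout only, and Hoxa11 and Cubn in wild type only. Each line gives the 250 bases before the start, from RefSeq on GRCm38.p6, whose chromosome coordinates are those of mm10. Capitals mark matches, on either strand, to TATAAA (bound by TBP), to CCAAT (bound by NF-Y), to GGGCGG (bound by SP1), to CACGTG (the E-box of MYC proteins), to TTTGCAT (part of the octamer of POU factors) or to TGANTCA (bound by AP-1), and no match here overlapped another.
Nanog, chr6:122707239-122707488, plus strand: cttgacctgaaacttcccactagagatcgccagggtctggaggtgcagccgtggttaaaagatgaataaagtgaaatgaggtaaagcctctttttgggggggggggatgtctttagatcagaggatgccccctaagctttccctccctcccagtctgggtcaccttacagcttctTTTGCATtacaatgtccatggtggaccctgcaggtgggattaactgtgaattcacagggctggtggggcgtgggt
Col3a1, chr1:45311288-45311537, plus strand: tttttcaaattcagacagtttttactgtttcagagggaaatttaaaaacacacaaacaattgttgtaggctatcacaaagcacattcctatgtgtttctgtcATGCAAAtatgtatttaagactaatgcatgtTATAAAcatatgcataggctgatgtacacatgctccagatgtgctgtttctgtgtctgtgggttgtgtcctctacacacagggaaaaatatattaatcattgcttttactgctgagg
Fgf2, chr3:37348403-37348652, plus strand: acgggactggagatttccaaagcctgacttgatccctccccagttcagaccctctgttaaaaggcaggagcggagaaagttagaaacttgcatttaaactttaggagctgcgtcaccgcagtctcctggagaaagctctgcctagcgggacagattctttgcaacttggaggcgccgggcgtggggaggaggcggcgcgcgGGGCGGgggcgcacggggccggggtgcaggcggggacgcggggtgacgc
Hnf4a, chr2:163506607-163506856, plus strand: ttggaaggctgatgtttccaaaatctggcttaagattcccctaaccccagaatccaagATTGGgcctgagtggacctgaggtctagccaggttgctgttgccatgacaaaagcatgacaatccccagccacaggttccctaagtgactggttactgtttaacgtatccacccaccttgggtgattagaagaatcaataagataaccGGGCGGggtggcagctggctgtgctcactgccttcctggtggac
Lhx1, chr11:84525535-84525784, minus strand: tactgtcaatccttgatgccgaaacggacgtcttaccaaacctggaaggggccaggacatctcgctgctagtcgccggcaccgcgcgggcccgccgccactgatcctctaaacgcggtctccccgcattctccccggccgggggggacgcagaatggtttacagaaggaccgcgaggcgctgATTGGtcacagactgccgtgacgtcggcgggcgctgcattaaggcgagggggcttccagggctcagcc
Hoxa11, chr6:52245811-52246060, minus strand: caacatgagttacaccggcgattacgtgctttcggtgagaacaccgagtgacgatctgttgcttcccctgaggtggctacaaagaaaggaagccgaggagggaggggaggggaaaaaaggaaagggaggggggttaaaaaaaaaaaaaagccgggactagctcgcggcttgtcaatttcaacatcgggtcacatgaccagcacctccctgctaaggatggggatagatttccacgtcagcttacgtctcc
Cubn, chr2:13491877-13492126, minus strand: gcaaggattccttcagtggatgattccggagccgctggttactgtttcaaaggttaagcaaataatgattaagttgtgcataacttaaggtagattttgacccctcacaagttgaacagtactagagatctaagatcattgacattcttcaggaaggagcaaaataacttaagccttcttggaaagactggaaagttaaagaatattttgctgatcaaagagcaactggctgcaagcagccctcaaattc
Within 1 kb of these starts, peaks covered 897 bp in the knockout and 893 bp in wild type at Nanog. The knockout covered 864 bp at Col3a1, a fibrillar collagen gene, 791 bp at Fgf2, a growth factor gene, 955 bp at Hnf4a, an endoderm and liver regulator, and 937 bp at Lhx1, a regulator of the organizer and kidney. Wild type had none at those 4 starts. Wild type covered 1540 bp at Hoxa11, a limb and uterus patterning gene, and 677 bp at Cubn, an endocytic receptor gene, where the knockout had none. The windows from 250 bases before to 50 after the start held 24 CpG dinucleotides at Fgf2, 31 at Lhx1 and 15 at Hoxa11, against 4 at Nanog, 0 at Col3a1, 4 at Hnf4a and 5 at Cubn, so starts listed in a single library were not of 1 base composition.

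The knockout list was the longer of the pair. It covered 190.3 Mb against 168.8 Mb, with median peak widths of 877 and 873 bp, and read depth is unknown because the lists carry no counts. X held 2.50% of the knockout peaks and 2.15% of the wild-type peaks, and Y held 16 in each. At Eif2s3y, Uty and Ddx3y, Y-linked genes active in many male cell types, no peak was listed in either day 0 library, whereas the day 5 wild-type library had 1 at each. Kdm5d, also Y-linked, had none in any library, and all of Y held 20 peaks in wild type and 14 in the knockout at day 5. The day 5 wild-type library thus differed from its day 0 counterpart at some Y-linked genes, by 1 peak each. Values set against day 5 rest on that library too. Ratios below use autosomes and are relative to the median locus or window of the comparison.

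The embryonic stem cell label was checked against markers at the transcript start. All 13 stem cell markers with a start in the reference table had a peak there in both libraries, among them Nanog, Sox2, Pou5f1, Klf4 and Zfp42. Starts of 12 feeder fibroblast markers held a peak in 11 cases in the knockout and 10 in wild type, with Prrx1 at 0 in both and Col3a1 at 0 in wild type. Of 11 primitive endoderm markers, 9 had a start peak in each library, and Afp was at 0 in both. Of 10 neural progenitor markers, 10 had one in the knockout and 9 in wild type. A start peak is thus frequent at markers of all 4 cell types in these lists, and it does not separate stem cells from the others.

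Most peaks were common to both genotypes. By an overlap of at least 1 bp, 24.7% of the knockout peaks (54814) and 15.9% of the wild-type peaks (31577) had no partner in the other list. At base level, 135.7 Mb of the 223.4 Mb covered by either list was covered by both. Most unshared peaks were not near misses: 1529 of the 54814 in the knockout and 1167 of the 31577 in wild type lay within 100 bp of a peak of the other list, although 25.8 and 32.1% lay within 1 kb of one. Cutting the knockout list to its widest 198860 peaks left 23.0% of knockout and 22.7% of wild-type peaks unshared, as lists of equal length with nearly one-to-one overlaps must give nearly equal shares.

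Unshared peaks were scarce at gene starts and frequent among narrow peaks. Within 1 kb of a transcript start, 9.11% of knockout peaks (95% exact binomial interval, 8.72 to 9.52, counting error only) and 6.03% of wild-type peaks (5.70 to 6.37) were unshared. In the rest of gene bodies the shares were 25.8 and 17.7%, and between genes 26.2 and 16.6%. Of knockout peaks in the narrowest of 5 equal width classes, 35.3% were unshared. The share was 18.5% in the width class next to the widest and 22.8% in the widest. Unshared knockout peaks lay a median of 25.5 kb from the nearest start and shared ones 18.6 kb, and wild type gave 25.3 and 18.6 kb. Of these 3 classes of position, gene starts were the most alike between genotypes.

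The chromosomes did not share the excess of knockout peaks evenly. On chromosomes 8, 10, 11, 12 and 17, the median 1 Mb window lay between −0.17 and −0.09 (log2 ratio of covered bp, knockout over wild type, minus the median window), against −0.02 to 0.07 on the other 14 autosomes. Chromosome 8 was the lowest, with 110 of its 127 windows below 0. The log2 ratio of peak numbers was 0.02 to 0.07 on these 5 chromosomes and 0.13 to 0.23 on the other 14, so every one of the 5 stood below every one of the 14. Knockout peaks were unshared in 19.9 to 23.0% of cases on the 5 and 23.2 to 27.9% on the 14; wild-type peaks in 16.1 to 20.01% and 13.0 to 16.7%. Chromosome 8 held 6.04% of the autosomal covered bp in wild type and 5.50% in the knockout at day 0, and 5.75 and 5.54% at day 5. Chromosome 10 held 5.43 and 5.11% at day 0 and 5.49 and 5.11% at day 5, so its lower share in the knockout was also seen at day 5. These 5 chromosomes are named because their values were lowest. They carried 198 of the 515 low gene loci defined below (38.5%) and 118 of the 806 high ones (14.6%), against 27.2% of all loci. Chromosome 11 was an exception among them, with 49 high and 17 low loci, and because the chromosomes were picked on the same comparison these counts are a description. What part the chromosome plays in the result at any single locus was not tested, and values relative to the same chromosome's median are given where they change a call.

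**Figure D1:**
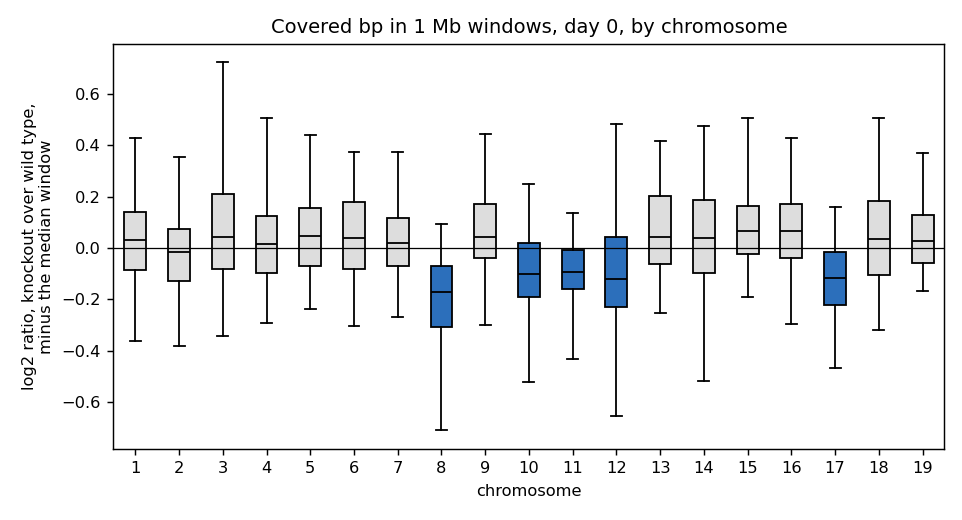
Log2 ratio of covered bp (knockout over wild type, day 0, minus the median window) in 1 Mb windows, by chromosome; boxes span the quartiles with the median as a line, and whiskers run from the 5th to the 95th percentile. The 5 blue boxes are chromosomes 8, 10, 11, 12 and 17, whose medians lie between −0.17 and −0.09.

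Gene loci, defined as the gene body with 50 kb on each side, were compared by the bp that peaks covered. Of 20661 autosomal protein-coding loci, 18656 had a mean of at least 2000 bp in the 2 libraries. Their raw log2 ratio (with 500 bp added to each side) had a median of 0.11, which was subtracted, and the quartiles were then −0.14 and 0.16. A ratio of at least 0.5 in either direction, or 1.41-fold, was used as the mark of a high or low locus: 806 loci (4.32%) were high in the knockout and 515 (2.76%) low. Overlapping loci made up 553 and 336 separate stretches. High loci were 61.0% of those past the mark, but 83.3% without centring and 48.0% when the ratio was centred on all autosomal covered bp, so which direction holds more loci depends on the scaling. Loci with few covered bp passed most often: of 5 equal classes by covered sequence, 23.0% passed in the lowest and 1.23% in the highest.

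The deleted genes were examined first. Within Cdc14a (chromosome 3, 116272553 to 116428741), 30 peaks were listed in the knockout and 18 in wild type at day 0, and 26 and 15 at day 5. Cdc14b (chromosome 13, 64192545 to 64274988) held 14 and 9 at day 0 and 13 and 12 at day 5. Of the day 0 peaks in Cdc14a, 13 were unshared in the knockout and 1 in wild type; in Cdc14b the counts were 6 and 1. Locus ratios were 0.32 and 0.39, and 0.57 at both genes with 10 kb on each side of the gene body. Start peaks were present in both genotypes: at the Cdc14a start at 116424072, peaks covered 1113 bp in the knockout and 1381 bp in wild type, and at the Cdc14b start at 64274988, 1141 and 1137 bp. Both genes were thus listed as accessible in the knockout, and over more sequence than in wild type. Which exons were deleted is not given in the sources used here, and open DNA says nothing of transcript or protein, so this is no check of the knockout.

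Loci of the core pluripotency factors differed little from the median locus. Of 11, none passed the mark in either direction, and their median was −0.01 against 0.00 over all loci. Peaks covered 27.3 kb in the knockout and 25.9 kb in wild type at Pou5f1, which encodes OCT4 (−0.03), and 24.1 and 19.5 kb at Sox2 (0.19). At Nanog they covered 27.3 and 27.2 kb (−0.11). The 3 central factors thus lay within 0.2 of the median locus. Dppa2 and Dppa4, adjacent genes for chromatin regulators that prime bivalent promoters, had the highest ratios of the list, with 24.9 against 17.5 kb (0.38) and 23.6 against 15.5 kb (0.48). Their loci overlap and each held 11 unshared knockout peaks and 1 unshared wild-type peak, so they count as 1 region. Utf1, a stem cell chromatin factor, stood at 0.13, and Lin28a, an inhibitor of let-7 processing, at 0.01. Sall4, a zinc finger factor, stood at −0.10, Fgf4, the autocrine growth factor, at −0.04 and Tdgf1, a NODAL co-receptor, at −0.01. Trim71, an RNA-binding ubiquitin ligase, was the lowest at −0.17.

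Naive pluripotency genes held the 1 locus of both lists that passed the mark. Of 16 loci 1 was high (6.25%, against 4.32% of all loci) and 0 low, and the median was 0.04. At Klf4, a Kruppel-like factor of the naive state, peaks covered 14.9 kb in the knockout and 9.44 kb in wild type (0.51), with 7 unshared knockout peaks and 1 unshared wild-type peak; the ratio was 0.10 with 10 kb on each side and 0.44 with 100 kb, and with 50 kb it was 0.45 with a pseudocount of 2000 bp, 0.49 by number of peaks and 0.46 centred on all autosomal covered bp, so the call is borderline. Zfp42 (REX1), the widely used reporter of naive cells, was the lowest, with 22.0 against 28.4 kb (−0.48) and 10 unshared wild-type peaks against 2. It lies on chromosome 8, and relative to that chromosome its ratio was −0.39. Tfcp2l1, a naive-state factor, stood at 0.35 with 9 unshared knockout peaks and 0 in wild type, and Prdm14, a repressor of FGF signalling and DNA methylation, at 0.31 with 13 and 4. Stat3, the effector of LIF, stood at 0.27, Gbx2, its target, at 0.21 and Tet2, a 5-methylcytosine oxidase, at 0.20. Fbxo15 and Klf5 stood at 0.09 and 0.06, Tbx3 at 0.01, Nr5a2 at −0.02 and Socs3, the feedback inhibitor of LIF signalling, at −0.03. Dppa3 (Stella), Klf2, Esrrb and Tcl1 lay between −0.11 and −0.08.

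**Figure D2:**
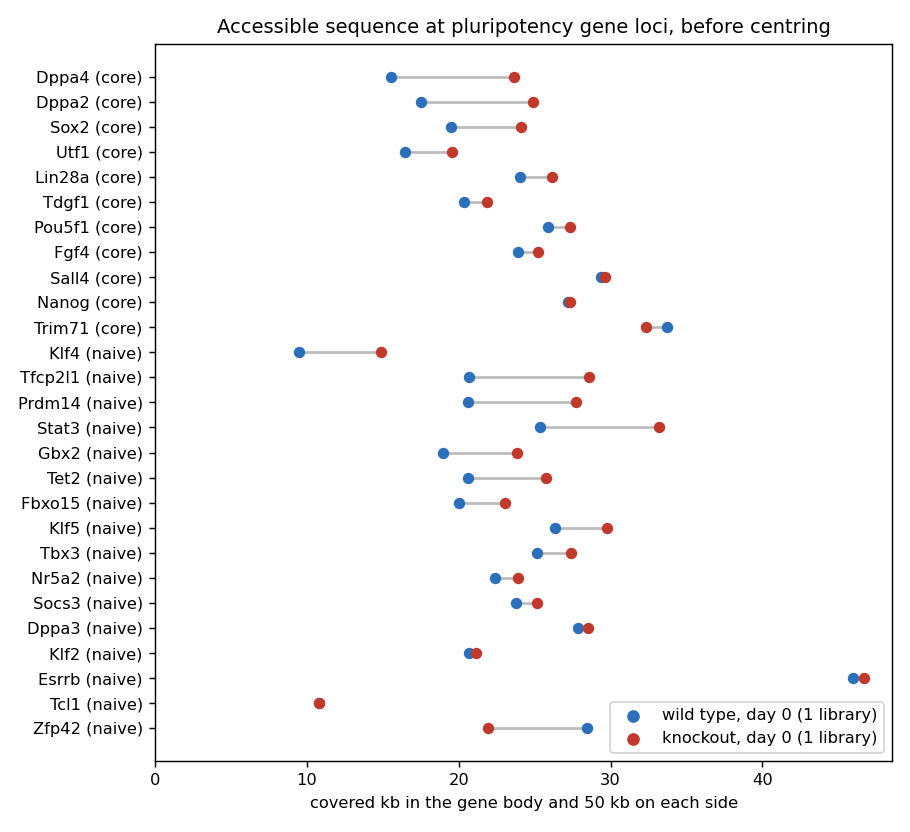
Covered kb (gene body with 50 kb on each side, before centring) at 27 loci of the core and naive pluripotency lists in wild type (blue) and knockout (red) at day 0, 1 library each, sorted by ratio within a list. The longest gaps are at Dppa4, Dppa2, Tfcp2l1, Stat3 and Prdm14, where the knockout is higher, and at Zfp42, where it is lower.

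Formative and primed genes, which are switched on as cells leave the naive state, had a median of −0.10 over 13 loci, with 9 below 0 and none past the mark. The lowest was Dnmt3b, a de novo DNA methyltransferase, at −0.36 (20.3 kb in the knockout, 24.1 kb in wild type). Foxd3, a repressor needed in epiblast and neural crest, was the highest at 0.35 (19.4 and 13.95 kb). The medians of the core, naive and formative lists all lay within 0.1 of 0, and without centring that of the formative list was 0.02.

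Primitive endoderm genes had the highest median of the 27 lists, 0.20 over 18 loci, and it stayed between 0.13 and 0.31 under all alternatives run at day 0. At day 5 the median of these loci was −0.01. At day 0, 2 loci were high (11.1%) and 1 low (5.56%), against 4.32 and 2.76% of all loci. Sox7, an endoderm and endothelial transcription factor, had 16.0 kb covered in the knockout and 8.31 kb in wild type (0.79), and Dab2, an endocytic adaptor of extraembryonic endoderm, 18.2 and 11.5 kb (0.53; 0.49 relative to its chromosome). Sox17, a related endoderm regulator, went the other way, with 6.32 and 9.30 kb (−0.64). The direction within the list was therefore not uniform, although 12 of its loci lay above 0. With 100 kb on each side, Sox7 stood at 0.39 and Sox17 at −0.39. Gata4 and Gata6, the zinc finger factors that specify this lineage, stood at 0.13 and 0.26, and Afp, a serum protein of visceral endoderm, at 0.48. Col4a1 and Col4a2, basement membrane collagens that share a promoter region, stood at 0.32 and 0.42, and Col4a2 at 0.50 relative to chromosome 8, just past the mark.

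Feeder fibroblast markers covered 287.1 kb in the knockout and 235.5 kb in wild type over 19 loci, with a median of 0.09 and 15 loci above 0. Col5a1, a fibrillar collagen, had 27.3 against 14.4 kb (0.78) and Postn, a matrix protein, 6.99 against 3.72 kb (0.72); these were the 2 high loci. Fap, a protease of activated fibroblasts, was the 1 low locus at −0.99, with 2.90 against 5.75 kb. The shares past the mark were 10.5% high and 5.26% low, against 4.32 and 2.76% of all loci. Pdgfrb, the PDGF receptor of mesenchymal cells, stood at 0.50 (23.1 and 14.9 kb), just under the mark. Twist1, a mesenchymal transcription factor, stood at −0.31, and Col1a1 and Thy1 at 0.09 and 0.02. Markers of 1 cell type thus lay at both ends of the range. In bulk lists of this kind a different share of cells of a type and a different accessibility per cell cannot be told apart, and the part of feeder cells in these values was not tested.

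Blood and endothelial genes held 2 high loci among 14 (14.3%, against 4.32% of all loci), with a median of −0.03 and 0 low. Runx1, the regulator of definitive blood formation, had 36.9 kb in the knockout and 20.6 kb in wild type (0.71), with 18 unshared knockout peaks and 0 in wild type. Its distal start at 92826074 on chromosome 16 was covered by 926 bp in the knockout and 0 in wild type, and by 0 in both day 5 libraries, whereas the other start, at 92697329, was covered in all 4. Erg, an endothelial and stem cell factor, had 30.8 and 19.2 kb (0.55).

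Neural progenitor genes had a median of −0.08 over 23 loci, from Fabp7, a fatty acid carrier of radial glia, at −0.48 to Emx2, a cortical homeobox gene, at 0.31; none passed the mark. Neuronal genes had a median of 0.01 over 18 loci, from Neurog2, a proneural factor, at −0.44 to Ncam1 at 0.25, and none passed it relative to all loci. Neurog2 passed it relative to its own chromosome (−0.51), with 10 kb on each side (−0.67) and with each list held to the same number of its widest peaks (−0.59). Mesoderm and primitive streak genes had a median of 0.05, from Gsc at −0.36 (−0.89 with 10 kb on each side) to Evx1 at 0.42, and trophoblast genes one of 0.05, from Elf5 at −0.40 to Gata2 at 0.23. In the germ line list the median was 0.11 and none was high. Dazl, an RNA-binding protein of germ cells, was the 1 low locus of 16 (6.25%, against 2.76% of all loci), at −0.65 (2.90 and 4.42 kb). Of 13 genes of the 2-cell-like state only 6 had enough covered sequence, with a median of −0.12, and the Zscan4 copies had no start peak in either library.

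**Figure D3:**
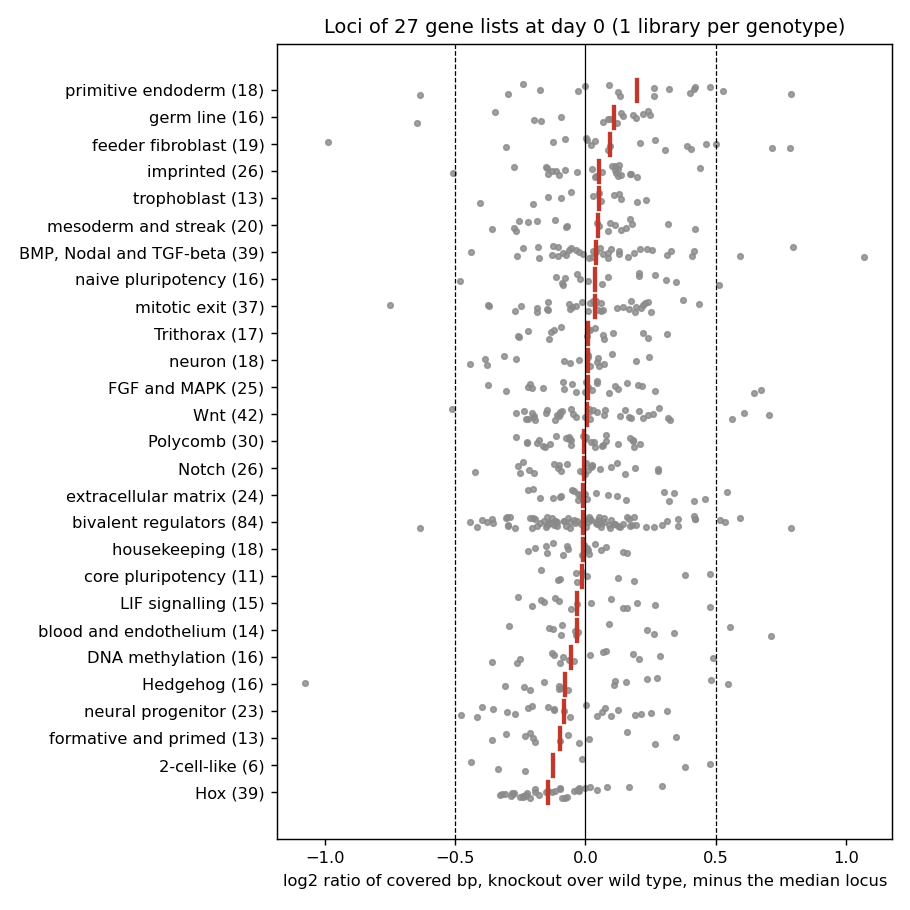
Locus ratios (log2 of covered bp, knockout over wild type at day 0, minus the median locus) of the members of 27 gene lists; each grey point is a locus, the red bar is the list median, the number of loci is in parentheses and dashed lines mark 0.5 in each direction. List medians run from −0.14 (Hox) to 0.20 (primitive endoderm), a narrower range than that of the members of most lists.

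Genes with bivalent promoters in stem cells, here a list of 84 developmental regulators, had a median of −0.01, with 41 loci above 0 and 43 below. 4 were high and 1 low, or 4.76 and 1.19% against 4.32 and 2.76% of all loci. Besides Sox7 and Sox17 they were Bmp4, a bone morphogenetic protein (19.05 kb in the knockout, 11.49 kb in wild type, 0.59), En1, a midbrain homeobox gene (15.3 and 9.61 kb, 0.54), and Pitx1, a hindlimb homeobox gene (17.2 and 10.9 kb, 0.51). En1 and Pitx1 stood at 0.48 and 0.47 relative to their own chromosomes, under the mark. Of 53 starts of the list in the reference table, 51 had a peak in both libraries and 2, those of Lhx1 and the forebrain and eye regulator Six3, in the knockout only. Over all 17491 genes with a start, 2.03% had a start peak in the knockout only and 1.24% in wild type only, so a count of 2 is no result about bivalent promoters.

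Hox genes, which pattern the body axis from 4 clusters, had the lowest list median, −0.14, with 34 of 39 loci below 0 and none past the mark. Neighbouring Hox loci overlap and form 4 stretches, so these are not 39 separate values. The lowest was Hoxb1 at −0.33 (20.5 kb in the knockout, 23.9 kb in wild type; −0.81 with 10 kb on each side), with Hoxb3 and Hoxb4 at −0.32 and −0.31. Hoxa7 stood at −0.29, and Hoxd13, at the other end of the order, at 0.29 (24.3 and 18.2 kb). The Hoxb cluster lies on chromosome 11, 1 of the 5 lower chromosomes, yet relative to their own chromosomes the Hox median was −0.17. Without centring it was −0.03.

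Genes for the Polycomb and Trithorax machinery, which lays and reads the marks of bivalent promoters, had no locus past the mark among 30 and 17, with medians of −0.01 and 0.01. Bmi1, a PRC1 subunit, was the lowest Polycomb gene at −0.27, and Phf1, a PRC2 accessory factor, the highest at 0.21; Ezh2, the PRC2 methyltransferase, stood at 0.04 and Suz12 at −0.16. Trithorax genes ran from Setd1b, an H3K4 methyltransferase, at −0.26 to Rbbp5, a shared subunit, at 0.31. Among 16 DNA methylation genes the median was −0.05 and none passed: Dnmt1, the maintenance methyltransferase, stood at −0.26 and Tet1 at −0.25, whereas Tet3 stood at 0.49 (32.7 and 21.4 kb). Dnmt1 and Dnmt3b thus lay below the median locus, and the TET oxidases, which act on methylated cytosine, lay on both sides of it. Of 26 imprinted loci, none was high and 1 was low (3.85%, against 2.76% of all loci). This was Ube3a, a ubiquitin ligase gene, at −0.51 (3.00 and 4.10 kb). Gnas was the highest at 0.44.

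Genes of mitotic exit, the step that CDC14 drives in yeast, had a median of 0.04 over 37 loci. None was high, and 1 was low (2.7%, against 2.76% of all loci): Ppp2r1a, the scaffold subunit of the phosphatase PP2A, at −0.75 (2.61 and 4.34 kb). Mastl (Greatwall), the kinase that restrains PP2A, stood at −0.38 (−0.73 with 10 kb on each side), and its substrate Arpp19 at 0.43 (22.2 and 15.04 kb). Cdc27, a subunit of the anaphase-promoting complex, stood at −0.37 and Pttg1 (securin) at 0.38. Cdk1 and Ccnb1, the mitotic kinase and its cyclin, stood at −0.18 and 0.19. All 28 starts in the reference table had a peak in both libraries. Housekeeping loci, for reference, had a median of −0.01 over 18 loci and ran from −0.22 (Rpl13a) to 0.16 (B2m).

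Signalling genes were taken pathway by pathway, against 4.32% high and 2.76% low of all loci. In the BMP, Nodal and TGF-beta list 3 of 39 loci were high (7.69%) and none low, with a median of 0.04. Inhba, which encodes the activin A subunit, had 9.06 kb in the knockout and 3.71 kb in wild type (1.07), with 7 unshared knockout peaks and 0 in wild type. Grem1, a secreted BMP antagonist, had 7.14 and 3.57 kb (0.80), and Bmp4 is given above. Tgfb3 was the lowest at −0.44 (−0.985 with 10 kb on each side). A ligand and an antagonist of the BMP branch were thus both high.

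In the FGF and MAPK list 2 of 25 loci were high, both ligands. Fgf10, a mesenchymal growth factor, had 12.4 and 6.97 kb (0.67), and Fgf2, an autocrine factor of stem cells, 17.3 and 10.0 kb (0.65). Dusp4, a MAPK phosphatase, was the lowest at −0.38, and the list median was 0.01. In the LIF list none of 15 passed; Jak1, the kinase under the LIF receptor, was the highest at 0.48 (18.6 and 12.2 kb) and Mycn the lowest at −0.26.

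Of 42 Wnt loci 3 were high and 1 low, with a median of 0.01. The ligand Wnt4 had 22.1 and 13.7 kb (0.56), the receptor Fzd6 21.8 and 13.0 kb (0.61; 0.48 with 100 kb on each side) and the receptor Fzd1 6.35 and 3.39 kb (0.70). Dkk1, a secreted inhibitor, was at −0.51 (4.66 and 6.29 kb) but at 0.06 with 100 kb on each side. The Hedgehog list had a median of −0.08 over 16 loci. Gli3, its repressor transcription factor, had 33.2 and 20.8 kb (0.55; 0.27 with 100 kb on each side and 0.49 centred on all autosomal covered bp), and Hhip, the membrane-bound inhibitor of Hedgehog ligands, 7.94 and 15.9 kb (−1.08), with 11 unshared wild-type peaks and 2 unshared knockout peaks. Hhip lies on chromosome 8 and stood at −0.99 relative to it. Notch genes had no locus past the mark among 26, from Dll1, a ligand, at −0.42 to Maml2, a coactivator, at 0.28. In the extracellular matrix list 1 of 24 was high, Fbn1 (fibrillin 1), with 28.5 and 17.9 kb (0.54; 0.46 by number of peaks and 0.49 centred on all autosomal covered bp, both under the mark).

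Gene families were taken by symbol, and the members named in this paragraph were chosen after their values were seen. Serpins, inhibitors of serine proteases, had 16 of 48 loci high (33.3%, against 4.32% of all loci) and 2 low (4.17%, against 2.76%). Their median was 0.36 and stayed between 0.17 and 0.48 under all alternatives run at day 0, but was −0.001 at day 5. The 16 lie in 9 stretches, since serpin genes sit in clusters, and many cover little sequence, a summed 483.2 kb in the knockout and 371.0 kb in wild type over the 48, where loci of all kinds pass the mark often. Serpina3g had 11.4 kb in the knockout and 4.28 kb in wild type (1.20) and the overlapping Serpina3f 10.6 and 4.28 kb. Serpinb1c had 14.5 and 6.47 kb (0.99), and Serpine2, a protease nexin, 15.7 and 8.24 kb (0.78). Serpina3c had 4.73 kb in the knockout, and no peak was listed there in wild type. High serpin loci lay on chromosomes 1, 12, 13 and 16, of which chromosome 12 is among the lower 5. Collagens had a median of 0.17 over 42 loci, positive under all alternatives run at day 0 but −0.19 at day 5. They had 4 high (9.52%) and 0 low loci: Col6a3 at 1.05, Col5a1 at 0.78, Col5a2 at 0.58 and Col24a1 at 0.55 (0.49 relative to its chromosome). Col5a1 is also a high locus of the feeder fibroblast list above, so the values of that list are not separate from these. The part of feeder cells was not tested. Keratins had 8 of 53 high (15.1%), in 3 stretches, with a median of 0.05 that was −0.01 when centred on all autosomal covered bp. Vomeronasal receptors, silent in most tissues, had 30 of 117 loci low (25.6%, against 2.76% of all loci) in 19 stretches and 7 high (5.98%). Their median was −0.11, which was 0.00 without centring. Olfactory receptors had 53 high (11.8%) and 67 low (14.9%) of 449. Receptor loci cover little sequence, in the range where 23.0% of all loci passed the mark, and reads from near-identical copies can be lost or shared, so these values are uncertain.

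Across all loci with a mean of at least 5000 bp, the highest ratios were at sparsely covered genes. Spef2, a sperm flagellar protein gene on chromosome 15, had 8.91 kb in the knockout and 1.75 kb in wild type (1.95), from 11 and 2 peaks. Tnfrsf11b, which encodes the decoy receptor osteoprotegerin, had 8.92 and 1.76 kb (1.95), and Thbs2, a matricellular thrombospondin, 12.3 and 2.83 kb (1.83). These were 3.55 to 3.87-fold above the median locus. Then came Spink5, an epidermal protease inhibitor (1.54), Gm815 (1.53), Il15, a lymphocyte cytokine (1.47), Jcad, an endothelial junction protein (1.46), and Mrpl3, a mitochondrial ribosomal protein (1.45). Jcad rested on the most sequence, with 16.7 and 5.27 kb from 20 and 6 peaks. The lowest were Gm9507 (3.14 kb in the knockout, 9.50 kb in wild type, −1.57), Flg, which encodes the skin barrier protein filaggrin (2.63 and 7.64 kb, −1.49), and Lyz1, a lysozyme (3.40 and 8.42 kb, −1.31; −0.43 with 100 kb on each side). Mettl4, a methyltransferase, stood at −1.28, Rnaset2a, a ribonuclease, at −1.24, 2310061N02Rik at −1.15, Plk4, the kinase of centriole duplication, at −1.12 and Cox7c, a cytochrome oxidase subunit, at −1.11. None of these 8 low loci held more than 1 unshared knockout peak, and of the 8 high loci only Thbs2 held an unshared wild-type peak, 1 in number.

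Of 2398 autosomal windows of 1 Mb, 84 (3.50%) were high and 77 (3.21%) low by the same mark. Windows poor in genes passed more often than others. Windows that held the midpoint of no protein-coding gene passed in 22.4% of cases and those with 15 or more midpoints in 1.35%. Their median covered sequence was 12.5 and 132.3 kb. Of 5 equal classes of windows by covered sequence, 23.8% passed in the lowest, and the part of covered sequence in the difference was not tested. Named here are the 6 highest and 6 lowest with a mean of at least 5000 bp; 2 windows with less covered sequence were lower still, at −1.73 and −1.67, and these hold 30 and 13 protein-coding genes. The highest was on chromosome 3 from 43 to 44 Mb, with 9.77 kb in the knockout and 1.77 kb in wild type (2.02) and no protein-coding gene. Chromosome 10 from 16 to 17 Mb (22.3 and 7.10 kb, 1.42) and chromosome 2 from 108 to 109 Mb (27.5 and 9.14 kb, 1.37) also held none. Chromosome 3 from 77 to 78 Mb stood at 1.52, chromosome 4 from 71 to 72 Mb, with Gm11232, at 1.36 and from 36 to 37 Mb, with Lingo2, at 1.34. The lower chromosomes were picked on these same window values, so where the low windows lie is a description only. Of the 6 lowest with that much sequence, 5 lay on the 5 lower chromosomes. They were chromosome 12 from 62 to 63 Mb (4.80 and 11.3 kb, −1.32), chromosome 8 from 55 to 56 Mb, overlapping 15 genes, Gpm6a and Glra3 among them (8.12 and 18.2 kb, −1.28), and from 97 to 98 Mb (13.9 and 27.2 kb, −1.11), chromosome 17 from 94 to 95 Mb, with Mettl4 (20.2 and 33.5 kb, −0.88), and chromosome 11 from 15 to 16 Mb (7.39 and 12.4 kb, −0.87). The other, chromosome 2 from 40 to 41 Mb in Lrp1b, stood at −1.17. All of these stayed past 0.5 relative to their own chromosome's median.

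Regions listed in a single library were counted by how many follow each other along a chromosome. Joining the autosomal peaks of both lists gave 246737 regions, of which 162513 were in both, 53086 in the knockout only and 31138 in wild type only. Runs of 5 or more consecutive regions of 1 library numbered 656 in the knockout, with 7.23% of its private regions, and 87 in wild type, with 1.56%. The knockout list is also the longer one; no expected number was computed, and the part of list length in the runs was not tested. The longest, 21 regions over 314.9 kb of chromosome 14 (74070139 to 74385083), lay 255.8 kb from the nearest protein-coding gene, Htr2a; a run of 13 on chromosome 5 (101201757 to 101286578) was nearest to Gpat3. In Antxr1, a receptor for collagen and anthrax toxin on chromosome 6 (87120563 to 87215673), 13 knockout regions followed each other with none in wild type. At day 5, 11 of the 13 were found in the knockout and 1 in wild type. In Bmper, a secreted BMP regulator on chromosome 9 (23262224 to 23495983), there were also 13, of which 7 were found in the knockout and 6 in wild type at day 5. The 13 regions in Antxr1 thus kept mostly to the knockout at day 5 and those in Bmper did not. Counting all peaks in the span, Antxr1 held 21 in the knockout and 4 in wild type at day 5, and Bmper 11 and 12. The longest wild-type runs held 8 regions in Iqcm and 8 far from Cdh8, both on chromosome 8, 7 near Vstm2a on chromosome 11 and 7 in Dock4 on chromosome 12. All are among the lower chromosomes, which were picked on the same comparison, so this too is a description only.

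**Figure D4:**
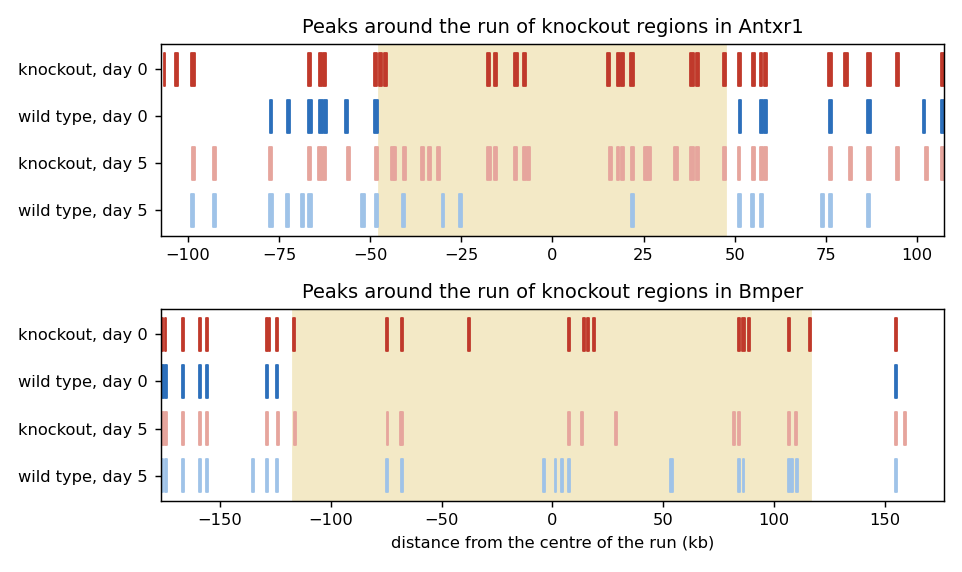
Peaks (bars) in the 4 libraries around the runs of 13 knockout regions in Antxr1 (top) and Bmper (bottom), by distance in kb from the centre of the run, which is shaded. In both runs the wild-type day 0 row is empty inside the shading; at day 5, 11 of the 13 regions in Antxr1 overlap a knockout peak and 1 a wild-type peak, against 7 and 6 in Bmper.

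The broadest peaks private to a library were examined singly. In the knockout they were 2030 bp in Ccnl1 on chromosome 3 (65949545 to 65951574), 2014 bp near Gcnt4 on chromosome 13 (96975669 to 96977682) and 1988 bp near Serbp1 on chromosome 6 (67174174 to 67176161), of which only the third overlapped a day 5 knockout peak and none a day 5 wild-type peak. In wild type they were 1658 bp near Fabp5 on chromosome 3 (10085095 to 10086752), 1502 bp in Rhpn2 on chromosome 7 (35338103 to 35339604) and 1379 bp at Six2 on chromosome 17 (85674630 to 85676008). All 3 overlapped a day 5 knockout peak, and only the first, by 759 bp, a day 5 wild-type peak.

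Transcript starts were much alike. Of 17491 protein-coding genes with a start in the reference table, 12519 had a peak within 1 kb of a start in both libraries, 355 (2.03%) in the knockout only, 217 (1.24%) in wild type only and 4400 in neither. With the knockout list cut to its widest 198860 peaks, the counts were 316 and 618, so the order of the genotypes reversed. Among list genes, the knockout alone had a start peak at Six3 (1305 bp), Wnt8b, a Wnt ligand (1045 bp), Hnf4a, Lhx1, Col3a1, Dlk1, an imprinted Notch-like gene (848 bp), Inhbb, an activin subunit (794 bp), Fgf2 and Hoxd8 (710 bp). Wild type alone had one at Hoxa11, Cubn, Wnt7a, a Wnt ligand (674 bp), T, the mesoderm regulator brachyury (194 bp), and the X-linked Esx1 (930 bp) and Dcx. Of these, Six3, Lhx1, Col3a1, Dlk1, Fgf2 and Hoxd8 had a start peak in both day 5 libraries, as did Hoxa11, Wnt7a, T, Esx1 and Dcx. Hnf4a and Wnt8b had one in the knockout only at both days, and Inhbb one in wild type only at day 5. In Cubn the order turned, with a wild-type peak at day 0 and a knockout peak at day 5.

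The starts listed in a single library had few CpG. Over windows from 250 bases before to 50 after the start, the median was 19 CpG for 15235 starts with a peak in both libraries, 4 for 503 in the knockout only, 4 for 298 in wild type only and 2 for 5226 in neither. The printed starts of Fgf2, Lhx1 and Hoxa11 are thus richer in CpG than most of their class, and that of Col3a1 is poorer. GGGCGG was found in 61.2, 20.7, 26.8 and 6.05% of the windows in that order, against 46.2% of all 21262, and TATAAA in 7.32, 15.7, 18.5 and 27.4%, against 12.6%. TGANTCA, the letters bound by AP-1 proteins, was found in 5.18, 14.3, 9.73 and 11.4%, against 6.99%. TTTGCAT was found in 3.72, 3.58, 3.02 and 5.87%, against 4.23%; it is the 1 match in the Nanog sequence above and also occurs in that of Col3a1. CCAAT was found in 37.7, 36.2, 30.2 and 40.2%, against 38.2%, and CACGTG in 9.70, 5.77, 4.70 and 2.77%, against 7.84%. Classes differ in CpG content, a match is a run of letters and not a bound site, and the part of base composition in these shares was not tested.

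The day 5 lists, which played no part in the day 0 comparison, were used to ask whether private peaks were found again in the same genotype. Of unshared knockout peaks, 42.8% (95% exact binomial interval, 42.4 to 43.3, counting error only) overlapped a day 5 knockout peak and 29.2% (28.8 to 29.6) a day 5 wild-type peak. Unshared wild-type peaks were found in 39.9% (39.4 to 40.4) and 29.3% (28.8 to 29.8) of cases. The knockout day 5 list, the longer one, therefore recovered more of both classes. Shared peaks were found in 85.0 and 70.5% of cases. Found in the day 5 list of their own genotype and not in the other were 23.1% of unshared knockout peaks and 9.41% of unshared wild-type peaks; found in that of the other genotype alone were 9.45 and 20.1%. The larger share thus went with the longer day 5 list in both classes.

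**Figure D5:**
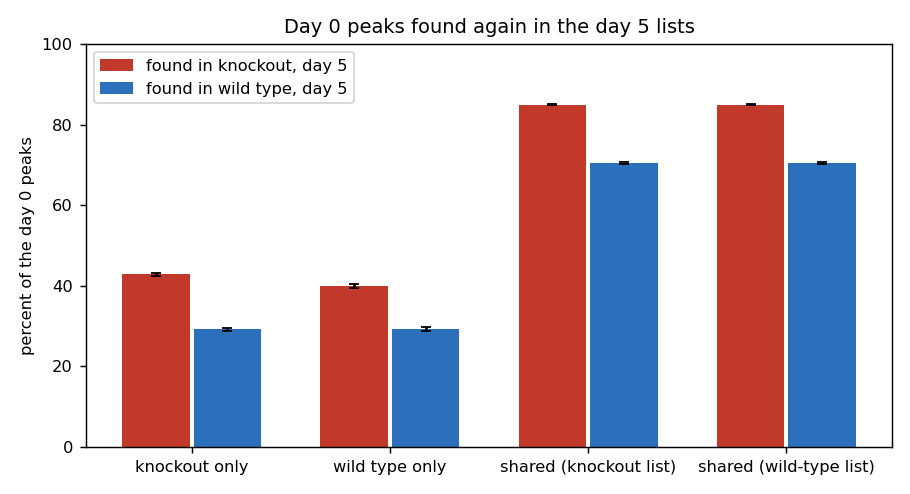
Percent of day 0 peaks that overlap a peak of the day 5 knockout (red) or wild-type (blue) library by at least 1 bp, for peaks listed in 1 day 0 library only and for shared peaks; bars start at 0 and error bars are 95% exact binomial intervals, for counting error only. Red bars exceed blue ones in all 4 classes, including peaks listed in wild type only (39.9 and 29.3%).

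Gene loci gave a like picture. Of 792 high loci at day 0 that could be compared at day 5, 119 were high again and 100 low, when 6.85% of all loci were high at day 5 and 5.14% low. Of 469 low loci, 61 were low again and 67 high. Among the genes named above, Dppa4 (0.89), Dppa2 (0.66), Foxd3 (0.77) and Tet3 (0.54) were past the mark at day 5. They had the same direction at day 0 but were under the mark then. Hhip (−0.54), Mrpl3 (0.55), Lyz1 (−0.60) and Cox7c (−0.69) were past it in the same direction at both days. Erg stood at 0.45. Klf4 (−0.08), Sox7 (−0.01), Runx1 (0.03) and Zfp42 (−0.02) were near the median locus at day 5. Inhba (−0.49), Postn (−1.02) and Fzd1 (−0.76) had the opposite sign at day 5. So did Tnfrsf11b (−1.19), Il15 (−0.57), Fgf10 (−0.67) and 2310061N02Rik (0.53). Of the lists with a median at least 0.1 from 0 at day 0, primitive endoderm stood at −0.01 at day 5, 2-cell-like at 0.07, germ line at 0.08 and Hox at −0.11. Feeder fibroblast markers stood at −0.18, serpins at −0.001, collagens at −0.19, keratins at −0.02 and vomeronasal receptors at 0.35.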

How the data were processed

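Open chromatin was profiled in nuclei with the 10x Multiome kit (target, about 5000 nuclei per condition) in 4 libraries, 1 per group. The authors deposited 1 list of peak positions (chromosome, start, end) per library, and no measure of signal. Per the file headers, cellranger-arc 2.0.0 called the peaks of each library against mm10, and Scanpy 1.7.2 is also named, per the submitters' processing notes. Depth per library and doublet removal are not given in the sources used here; the RNA data were not analysed here. Covered bp were counted per locus, window and start with Python 3.11.15, numpy 2.4.6 and pandas 2.3.3, in code tested on simulated peaks; intervals used scipy 1.17.1. Gene spans and starts came from RefSeq tables of GRCm38.p6, and genes not in the start table have no start value. Differences have no test. Members, the 27 gene lists and 18 symbol families were chosen with earlier results of these data known. Named are Cdc14a and Cdc14b, the core and naive pluripotency genes, the highest and lowest locus of each other list, the 8 highest and 8 lowest loci (mean of at least 5000 bp, 500 kb apart), the 6 highest and 6 lowest windows (the same minimum), the 4 longest runs and 3 widest private regions per library, and up to 10 list genes per direction with a private start peak; other genes were named after their values were seen.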

Additional observations from a re-analysis of the deposited data

Results flagged for a closer look

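The first 4 results are gene loci, and the next 3 are windows. Their ratio was past 0.5 in 1 direction at day 0 and past 0.5 in the other at day 5. Such a change was not rare among loci. Of 792 high loci at day 0 that could be compared, 100 were low at day 5 and 119 high again. Of 469 low loci, 67 were high at day 5 and 61 low again. Postn and Fzd1, named above, met the same rule and are not described again here. With 1 library per group the difference between days was not tested. Tnfrsf11b, which encodes a decoy receptor, had a ratio of 1.95 at day 0 (8.92 kb in the knockout, 1.76 kb in wild type) and −1.19 at day 5 (2.71 and 5.45 kb). Il15, a cytokine gene, went from 1.47 to −0.57, with 5.02 and 6.15 kb at day 5. Fgf10, a growth factor gene, went from 0.67 to −0.67, with 6.34 and 8.35 kb at day 5. 2310061N02Rik was at −1.15 at day 0 (3.27 and 7.26 kb) and at 0.53 at day 5 (8.46 and 4.54 kb).

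The window on chromosome 3 from 43 to 44 Mb had a ratio of 2.02 at day 0 and −0.90 at day 5 (7.06 kb in the knockout, 11.3 kb in wild type). Chromosome 10 from 16 to 17 Mb went from 1.42 to −0.95, and chromosome 2 from 108 to 109 Mb from 1.37 to −1.08, with 19.04 and 34.2 kb at day 5. None of these 3 windows holds a protein-coding gene.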

How the results depend on the processing

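No paired analysis was possible because each group holds 1 library and no test was run. Without counts or scores, depth is unknown, so a peak missing from a list can be closed or undersampled. Unshared peaks were 25.5% of the knockout and 16.7% of the wild-type list under a reciprocal overlap of 50%, 18.3 and 10.8% when peaks within 1 kb counted as shared, and 23.0 and 22.7% among the widest peaks in equal numbers. High and low loci numbered 136 and 51 at a threshold of 1, 353 and 156 with a minimum mean of 10000 bp and 1428 and 286 without centring; low loci numbered 319 with a pseudocount of 2000 bp, 819 with the gene body plus 10 kb and 788 with no minimum. Centring on the chromosome median, chosen after seeing the data, gave 746 and 506, of which 697 and 454 were also called relative to all loci. High and low windows numbered 327 and 253 at 500 kb, 18 and 19 at 2 Mb and 12 and 6 at a threshold of 1. The 5 chromosomes with the lowest medians were the same under the 5 window alternatives run, a check added after seeing the data. Lists with a median at least 0.1 from 0 numbered 4 as reported, 7 with 10 kb or 100 kb on each side or centring on all autosomal covered bp, and 18 without centring. Genes with a start peak in wild type only numbered 618 among the widest peaks in equal numbers. With a reciprocal overlap of 50%, unshared knockout peaks were found at day 5 in 40.5% (knockout) and 27.1% (wild type) of cases, unshared wild-type peaks in 37.4 and 27.2%, shared knockout peaks in 83.6 and 68.9% and shared wild-type peaks in 83.7 and 69.0%. Dkk1 was 0.060 with the gene body plus 100 kb. The alternatives were run on 91 single loci: Cdc14a, Cdc14b, the core and naive genes, and the highest and lowest loci named by rule. Of the 28 past the mark, 8 were under it in at least 1 of 11 alternatives, and 18 others passed it in at least 1. Other genes named above as past the mark, such as Dab2, Pitx1 and Ube3a, were not in this check. The cause of these changes was not tested.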
